A study of Mus musculus with 6 samples.

Results

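The genes described here are Trp53, which encodes the transcription factor p53, and 9 genes that p53 is known to activate directly: Mdm2, Fas, Ccng1, Trp53inp1, Zmat3, Btg2, Plk2, Phlda3 and Aen. They were taken as a fixed list of symbols, matched to the gene identifiers of the deposited tables, and all 10 were found among the 18743 genes listed in any library. All 10 also passed the filter on low counts, which left 12779 genes to test. The cells were wild-type C57BL/6 mouse oligodendrocyte progenitor cells (OPCs), which divide and give rise to the myelin-forming glia of the brain, labelled as postnatal day 1 and isolated from the cortices of pups at day 0 to 2 with magnetic beads against CD140 (PDGFRα). After 3 days of expansion in growth medium the cultures received either vehicle, which was 0.25% DMSO, or 50 µM hemin, a heme whose iron is in the ferric state, and RNA was taken 12 h later. There were 3 vehicle and 3 hemin libraries, and no genetic alteration is labelled in either group. Nothing in the labels states that the replicates are separate cultures or litters. The p-values therefore weigh a change only against the spread among these samples, and that spread may be technical.

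In a resting cell p53 is made steadily and destroyed as steadily, because Mdm2, a ubiquitin ligase, binds it and marks it for degradation. DNA damage and other stresses free p53 from Mdm2, mostly by modifying the proteins, so that a change in p53 activity need not show in Trp53 RNA. Active p53 then switches on genes that halt the cell cycle, repair DNA, redirect metabolism or promote death, and it also switches on Mdm2, which closes a negative feedback loop. Many of these genes answer to other stress-responsive factors as well, and RNA levels alone do not show which factor was at work.

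p53 binds a pair of 10-base elements that follow each other directly or after a short gap. The promoter windows that RefSeq gives for assembly GRCm38.p6, 250 bases before to 50 after a gene's start, were searched for this motif, the p53 consensus decamer, placed end to end with its copy over 20 bases and with the invariant C and G of each copy kept. The decamer reads the same on both strands, so one search covers both. Windows were present for 8 of the 10 genes, with none for Zmat3 and Trp53inp1. A match at most 1 letter off was found for Ccng1, beginning 195 bases upstream of its start, and 0.067% of the 32851 promoter windows of the mouse table hold one as close. Matches 3 letters off were found for Trp53, beginning 75 bases upstream, and for Aen, beginning 121 bases upstream of the start of one of its transcripts and 10 bases downstream of the other, and 1.38% of all windows hold one at most 3 letters off. The Mdm2 window held no such match but did hold 1 decamer with every letter kept, 186 bases upstream, as do 8.36% of all windows. The closest match lay 5 letters off for Phlda3 and Plk2 and 7 off for Btg2, and the Fas window held none with the invariant letters. The stretches are shown because they are the places in these windows where the gene sequences come closest to the letters that p53 reads. Capitals mark the match, and each stretch is written 5′ to 3′ on the strand of the gene.
Ccng1, chr11:40755442-40755501, minus strand: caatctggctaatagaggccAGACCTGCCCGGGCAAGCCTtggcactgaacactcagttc
Trp53, chr11:69580264-69580323, plus strand: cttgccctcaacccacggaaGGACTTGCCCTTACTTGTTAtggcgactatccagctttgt
Mdm2, chr10:117710910-117710969, minus strand: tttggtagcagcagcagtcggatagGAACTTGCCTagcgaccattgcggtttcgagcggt
Aen, chr7:78895937-78895956, plus strand: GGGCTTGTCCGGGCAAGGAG
A match is a description of letters and not a measured binding site. Sites outside these windows, such as those in introns, were not analysed here.

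Each library held between 6339966 and 6523639 expected counts over annotated genes, the authors' estimates of reads per transcript. The 6 OPC markers Pdgfra, Cspg4, Olig1, Olig2, Sox10 and Gpr17 were present in all libraries, and their summed level was 1003 to 1211 FPKM (fragments scaled by transcript length and library depth) under vehicle and 262 to 404 under hemin. All 6 fell. Fewer cells of a type and less RNA per cell cannot be told apart in bulk samples. The 10 microglia markers summed to 9.90 to 17.8 FPKM under vehicle and 24.0 to 28.1 under hemin, where 2 of the 8 tested rose, and the 4 endothelial markers to 0.33 to 0.75 and 3.15 to 3.86, where 2 of the 2 tested rose. None of these 14 was at 0 throughout a group. The 6 neuronal markers summed to 103 to 133 FPKM under vehicle and 58.6 to 90.5 under hemin, and 2 of them fell. The 5 listed markers of maturing oligodendrocytes summed to 34.4 to 58.4 FPKM and 26.03 to 39.4 FPKM, with 1 of 4 tested lower. A further marker, Mog, matched no gene listed in any library. The 6 astrocyte markers summed to 361 to 427 and 314 to 393 FPKM, with 1 higher and 2 lower. The 4 fibroblast markers summed to 0.65 to 2.68 FPKM under vehicle and 1.27 to 5.20 under hemin, ranges that overlap. By the test described below, 16.2% of all 12779 genes tested were called higher and 15.7% lower. The counts of markers that rose or fell stand beside those shares, and each list is small. The part of these marker shifts in the results on the p53 genes was not tested.

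Most of the p53 genes were higher under hemin, and none was called lower. Of the 10 genes, 7 rose: Fas, Mdm2, Plk2, Trp53inp1, Phlda3, Ccng1 and Trp53 itself. Zmat3, Aen and Btg2 did not pass the test. The test was edgeR's quasi-likelihood test on expected counts, two-sided, with Benjamini-Hochberg adjustment over all 12779 genes tested, and a gene was called at an adjusted p below 0.05. By this rule 16.2% of all genes tested were called higher and 15.7% lower (31.9% in either direction). With libraries scaled by their totals alone, 39.9% of all calls were higher instead of 50.8%, and the 7 calls held. A rise of at least 2-fold was called for 5 of the 10 (Fas, Mdm2, Plk2, Trp53inp1 and Phlda3) and for 7.47% of all genes tested. Leaving out hemin replicate 1 brought that count to 3, as Trp53inp1 and Phlda3 fell below 2-fold. It was 4 with library totals alone, limma on log2(FPKM + 1) or log2(FPKM + 0.1), no filter, or without vehicle replicate 2. Without vehicle replicate 3 or hemin replicate 2 it was 6. Every hemin library was above every vehicle library for 8 of the 10, the 7 that rose and Zmat3, and for 24.1% of all genes tested. The 10 genes had a median log2 fold change of 0.96, against 0.00 over all genes tested. At an unadjusted p below 0.05 none of the 10 was lower either, beside 2800 of the 12779 genes tested. DESeq2 and limma likewise called 7 higher and 0 lower. Over all genes, DESeq2 called 2192 higher and 2083 lower of 18724. Limma called 1792 higher and 2298 lower of 12683 on log2(FPKM + 1), and 1641 and 2073 on log2(FPKM + 0.1).

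**Figure D1:**
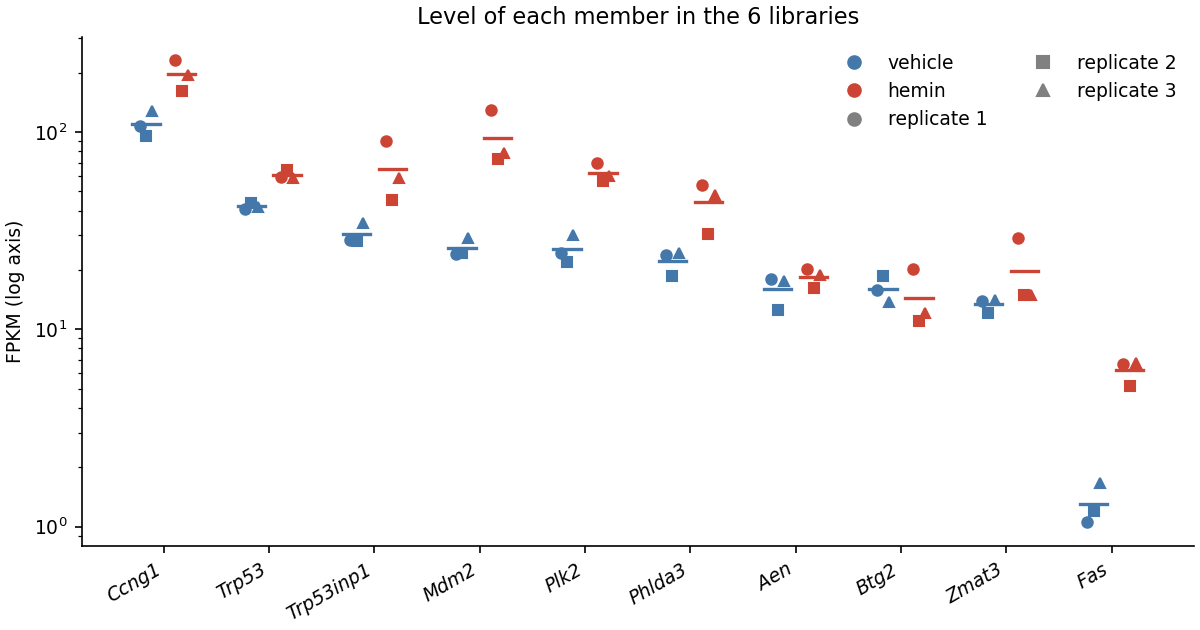
Level of each of the 10 genes in the 3 vehicle (blue) and 3 hemin (red) libraries, in FPKM on a log axis, with genes ordered by their vehicle mean. Symbols mark replicates and short lines the group means; the red points lie wholly above the blue ones for Ccng1, Trp53, Trp53inp1, Mdm2, Plk2, Phlda3, Zmat3 and Fas.

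Under vehicle the levels of the 10 genes, compared per length in FPKM, ran from Ccng1 at the top to Fas at the bottom. Ccng1 was the most abundant at 110 ± 16.6 FPKM (SD, n = 3), and its lowest library lay above the highest of every other gene. Trp53 came next at 42.2 ± 1.57 FPKM, also apart from its neighbour in the order. Trp53inp1, Mdm2, Plk2 and Phlda3 followed, from 30.4 down to 22.3 FPKM, and each overlapped the next over the libraries. Aen, Btg2 and Zmat3, at 16.1, 16.1 and 13.4 FPKM, overlapped in the same way. Fas was the least abundant at 1.31 ± 0.323 FPKM, from 49 expected counts over the 3 libraries. With hemin the order changed between Ccng1 and Fas, which kept the first and last places. Mdm2 moved from rank 4 to rank 2 by its mean, and its libraries overlapped those of Trp53inp1 below it. Trp53 moved from rank 2 to rank 5, where Plk2 above it overlapped it. Zmat3 stood above Aen and Btg2 by its mean with overlapping libraries.

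The pair at the centre of the pathway changed unequally. Trp53 (gene identifier 22059 in the files) stood at 40.8, 43.9 and 41.8 FPKM in vehicle replicates 1 to 3 and at 59.2, 64.35 and 58.8 FPKM in hemin replicates 1 to 3. The groups did not overlap, and the libraries of each lay close together. The gene rose 1.497-fold (log2 fold change 0.58 ± 0.09, SE; edgeR adjusted p = 0.00338). Mdm2 (17246) stood at 24.2, 24.25 and 28.9 FPKM under vehicle and at 129, 73.2 and 78.0 FPKM under hemin. Every hemin library was above every vehicle library, and hemin replicate 1 was well above the other two. Mdm2 rose 3.79-fold (log2 fold change 1.92 ± 0.25, edgeR adjusted p = 0.00173), and 401 of the genes tested had a higher log2 fold change. The level of Mdm2 was below that of Trp53 in all 3 vehicle libraries and above it in all 3 hemin libraries, with a ratio of the FPKM values of 0.593, 0.553 and 0.691 under vehicle and 2.17, 1.14 and 1.33 under hemin. That ratio differed by 1.29 on the log2 scale (exact permutation test over the libraries, two-sided p = 0.1, the smallest that 3 against 3 allows).

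The gain of Mdm2 lay mainly in 1 of its 2 listed transcripts. NM_010786, of 3124 bases, stood at 18.0, 17.8 and 19.5 FPKM under vehicle and at 116, 64.4 and 65.2 FPKM under hemin, 4.44 times the vehicle mean. NM_001288586, of 3039 bases, stood at 6.15, 6.46 and 9.44 FPKM under vehicle and at 12.96, 8.84 and 12.8 under hemin, 1.57 times the vehicle mean, and its groups overlapped. The shorter transcript therefore took 25.4%, 26.6% and 32.7% of the gene's FPKM under vehicle and 10.1%, 12.1% and 16.4% under hemin, so that the groups were apart. Among 1541 tested genes with 2 listed transcripts of at least 10 mean counts each, the shares of the groups did not overlap in 20.6%. The transcripts differ by 85 bases in the files. In GENCODE vM21 the third of the 12 exons of the matching Mdm2 transcript is the only one of that length, and 2 other annotated transcripts pass over it between its neighbours. That exon carries the start codon, and its coding part is shown for this reason, with the start codon in capitals.
Mdm2 exon 3, coding part, GRCm38 chr10:117709700-117709780, minus strand: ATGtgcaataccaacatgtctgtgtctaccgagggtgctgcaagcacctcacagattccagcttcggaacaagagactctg
The files give lengths and not exons, so which bases the shorter transcript lacks was not read from them. The counts per transcript are estimates that divide shared reads between isoforms, and no test was run on them.

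Trp53 has 2 listed transcripts as well, and their balance was alike in both groups. NM_011640, the regular form, stood at 35.4, 40.2 and 35.3 FPKM under vehicle and at 52.35, 55.2 and 51.1 under hemin. NM_001127233, in which an earlier splice site gives p53 another carboxyl end, stood at 5.42, 3.73 and 6.55 FPKM under vehicle and at 6.89, 9.17 and 7.69 under hemin. Its share of the gene was 12.5% ± 3.65 under vehicle and 12.99% ± 1.31 under hemin (SD, n = 3 each), and the groups overlapped. The 96 bases by which the transcripts differ in the files equal the shift in the start of the last exon in GENCODE vM21. The coding ends that follow the shared part are shown, with the stop codon in capitals, to make the difference visible.
NM_011640, GRCm38 chr11:69591350-69591431, plus strand: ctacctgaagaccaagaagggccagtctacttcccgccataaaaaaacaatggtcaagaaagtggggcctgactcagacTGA
NM_001127233, GRCm38 chr11:69591254-69591308, plus strand: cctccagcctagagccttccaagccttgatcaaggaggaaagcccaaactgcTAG

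**Figure D2:**
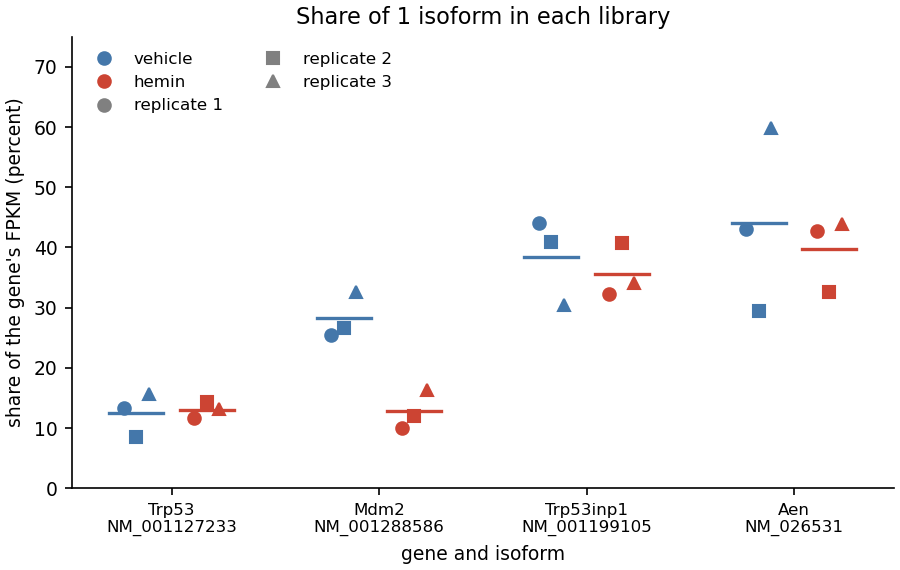
Share of 1 listed isoform in the FPKM of its gene, in percent, for the 3 vehicle (blue) and 3 hemin (red) libraries; symbols mark replicates and short lines the means. The Mdm2 isoform lies between 25.4% and 32.7% under vehicle and between 10.1% and 16.4% under hemin, while the groups overlap for Trp53, Trp53inp1 and Aen.

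Among the genes that act on the cell cycle, Ccng1 and Plk2 rose and Btg2 did not pass. Plk2 (20620), a polo-like kinase induced by stress and by neuronal activity, stood at 24.4, 21.95 and 29.99 FPKM under vehicle and at 70.0, 56.3 and 59.6 under hemin. The groups were far apart, and the SD was 16.2% of the mean under vehicle and 11.5% under hemin. The gene rose 2.53-fold (log2 fold change 1.34 ± 0.16, edgeR adjusted p = 0.00133). Ccng1 (12450), which encodes cyclin G1, a partner of protein phosphatase 2A that acts on Mdm2, stood at 108, 95.2 and 128 FPKM under vehicle and at 232, 161 and 195 under hemin. Here too no library overlapped, and the gene rose 1.84-fold (log2 fold change 0.88 ± 0.18, edgeR adjusted p = 0.00863). Btg2 (12227), an antiproliferative protein that promotes the removal of poly(A) tails, stood at 15.9, 18.6 and 13.7 FPKM under vehicle and at 20.1, 11.1 and 12.0 under hemin. Hemin replicate 1 was the highest of the 6 libraries and the other 2 hemin libraries were the lowest. The log2 fold change of Btg2 was -0.09 ± 0.26 (edgeR adjusted p = 0.81), and its sign depended on the libraries: it was -0.45 without hemin replicate 1 (edgeR adjusted p = 0.0534) and 0.07 without hemin replicate 2.

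Among the genes that act on death, survival signalling and RNA, 3 of 5 rose, beside 16.2% of all genes tested. They are part of the 7 named above. Fas (14102), a death receptor on the cell surface, stood at 1.05, 1.20 and 1.67 FPKM under vehicle and at 6.66, 5.19 and 6.75 under hemin. These rest on 13, 15 and 21 expected counts under vehicle and on 84, 62 and 83 under hemin, the thinnest counts of the 10 genes. Fas rose 4.85-fold (log2 fold change 2.28 ± 0.28, edgeR adjusted p = 0.00163), and all but 1 count belonged to NM_007987. On the log2(FPKM + 1) scale, which understates changes of low genes, its difference was 1.64, below the 1.77 of Mdm2. The groups did not overlap, and its level under hemin was still the lowest of the 10 genes.

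Trp53inp1 (60599), a nuclear cofactor of p53 that also takes part in autophagy, stood at 28.4, 28.1 and 34.6 FPKM under vehicle and at 90.3, 45.4 and 58.3 under hemin. The hemin libraries were spread widely, all of them above vehicle. The gene rose 2.22-fold (log2 fold change 1.15 ± 0.26, edgeR adjusted p = 0.0138), and both of its listed transcripts were higher in each hemin library than in any vehicle library. Phlda3 (27280), which competes with the kinase AKT for membrane lipids, stood at 23.7, 18.7 and 24.5 FPKM under vehicle and at 54.1, 30.5 and 47.8 under hemin. The lowest hemin library, replicate 2, was not far above the highest vehicle library. Phlda3 rose 2.06-fold (log2 fold change 1.04 ± 0.23, edgeR adjusted p = 0.0135).

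Zmat3 and Aen did not pass. Zmat3 (22401), an RNA-binding protein that steers splicing and RNA stability, stood at 14.0, 12.1 and 14.05 FPKM under vehicle and at 29.0, 15.0 and 14.9 under hemin. The groups did not overlap, but 2 hemin libraries were just above the vehicle range and replicate 1 alone was far from it. The log2 fold change was 0.62 ± 0.28 (edgeR adjusted p = 0.131) and 0.18 without hemin replicate 1. Aen (68048), a nuclease that takes part in the digestion of DNA during apoptosis, stood at 18.1, 12.5 and 17.6 FPKM under vehicle and at 20.2, 16.1 and 18.8 under hemin. Its groups overlapped, and the log2 fold change was 0.25 ± 0.18 (edgeR adjusted p = 0.335). Whether the genes that did not pass changed less than those that rose was not tested.

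**Figure D3:**
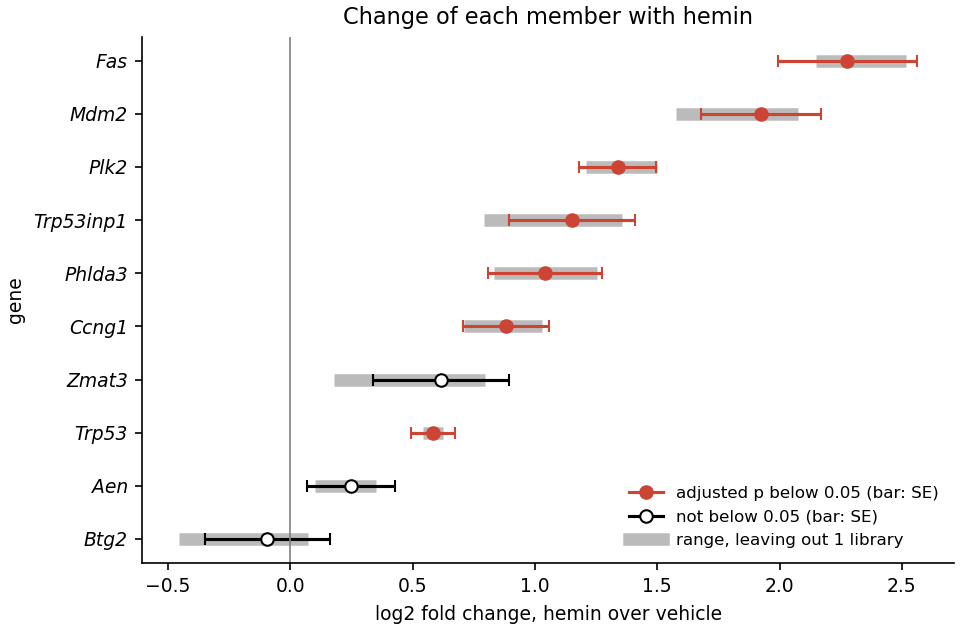
log2 fold change of each gene, hemin over vehicle, with its standard error (thin bars) and the range obtained by leaving out each of the 6 libraries in turn (grey). Filled red points passed an adjusted p of 0.05; those 7 grey ranges lie above 0, from 0.54 at the lowest for Trp53 to 2.52 at the highest for Fas, while that of Btg2 spans 0.

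Hemin replicate 1 held the highest hemin level of most of these genes. On counts scaled for library composition it was the highest of the 3 hemin libraries for 9 of the 10 genes, all but Trp53, and for 41.3% of all genes tested. By FPKM it was the highest for 8 of the 10, as Fas stood at 6.75 in hemin replicate 3 and at 6.66 in replicate 1. The FPKM of hemin replicate 1 was 1.94 times the mean of the other 2 hemin libraries for Zmat3, 1.74 times for Btg2 and for Trp53inp1, 1.70 times for Mdm2 and 1.38 times for Phlda3. For Trp53 it was 0.962 times that mean. The coefficient of variation over the hemin libraries was accordingly 41.3% for Zmat3, 35.7% for Trp53inp1 and 33.0% for Mdm2, against 5.09% for Trp53. The 7 genes passed without this library too, with Mdm2 at a log2 fold change of 1.58, Trp53inp1 at 0.79 and Phlda3 at 0.83. They passed under every one of the 13 other settings tried, with edgeR adjusted p-values up to 0.0486 for Trp53inp1 and 0.0466 for Phlda3 when 1 vehicle library was left out.

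**Figure D4:**
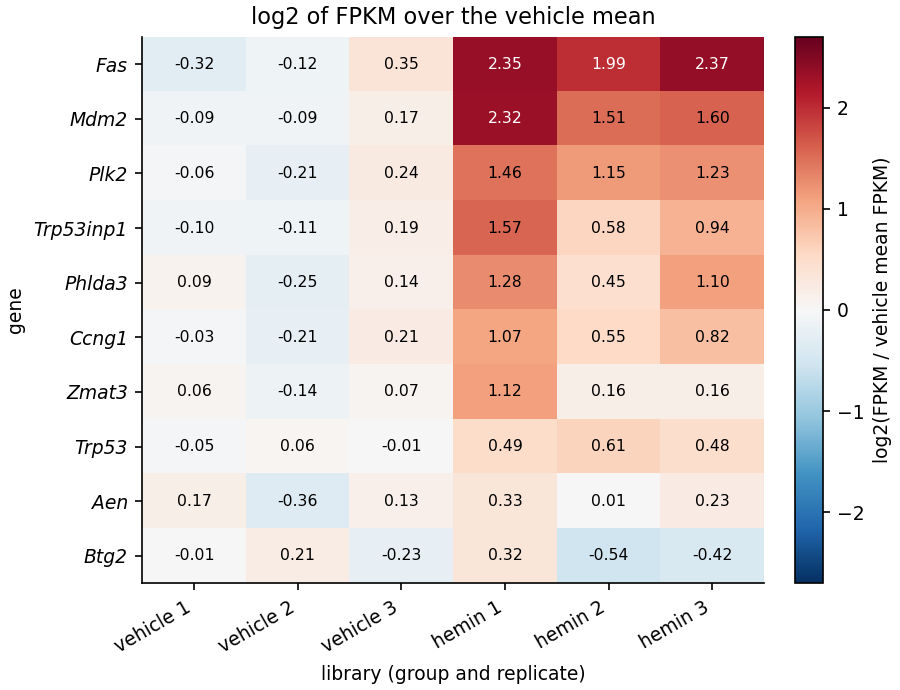
log2 of the FPKM of each gene in each library over the gene's vehicle mean, with genes ordered by their fitted change; red is above and blue below that mean. The hemin replicate 1 column holds 1.12 for Zmat3 beside 0.16 in both other hemin libraries, and Btg2 is at 0.32 there and at -0.54 and -0.42 in the others.

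The other genes of the pathway came from lists of textbook targets and regulators, chosen with earlier results of these data known. Of 41 tested further p53 targets, 15 rose and 2 fell, with a median log2 fold change of 0.43, beside the 16.2% and 15.7% of all genes tested. Of 15 targets that act on arrest and repair, 5 rose, and both that fell were on this list. Cdkn1a, the inhibitor of cyclin-dependent kinases that carries out much of the p53 arrest, stood at 83.9, 57.2 and 79.8 FPKM under vehicle and at 465, 272 and 348 under hemin, a rise of 5.11-fold. All hemin libraries were far above all vehicle libraries. Gadd45a, a stress protein linked to repair and arrest, rose 7.67-fold, Sesn2, a sestrin that restrains mTOR, 5.18-fold, Polk, a polymerase that copies damaged DNA, 2.08-fold, and Psrc1, a spindle protein, 1.77-fold. For these 5 the adjusted p of edgeR lay between 0.000241 and 0.00884. Rprm, a mediator of arrest in G2, fell 1.99-fold from 19.1 ± 0.497 to 9.22 ± 2.80 FPKM (edgeR adjusted p = 0.0155, and 0.0515 without vehicle replicate 1). Sesn1, another sestrin on this list, was the other gene that fell and was named after its values were seen. It fell 1.55-fold from 12.1 ± 1.72 to 7.54 ± 0.676 FPKM (edgeR adjusted p = 0.0157), and leaving out vehicle replicate 1, vehicle replicate 2 or hemin replicate 2 ended the call (0.0702, 0.061 and 0.0565).

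Of 13 targets that promote death, 4 rose and none was called lower, beside 16.2% and 15.7% of all genes tested. None was lower by DESeq2 or limma, beside 2083 of 18724 genes with DESeq2 and 2298 of 12683 with limma at a pseudocount of 1. None was lower at an unadjusted p below 0.05 either, where 2800 of all 12779 genes tested were lower. With 13 genes the absence of lower calls is not read as particular to this list. Pmaip1, which encodes the BH3-only protein Noxa, rose 4.15-fold from 5.62 ± 1.80 to 22.5 ± 7.94 FPKM, and Tnfrsf10b, a receptor for the ligand TRAIL, 3.26-fold. Perp, a membrane protein of desmosomes and apoptosis, rose 2.44-fold and Eda2r, a receptor of the TNF family, 2.22-fold. Their edgeR adjusted p-values lay between 0.00474 and 0.0283, and the log2 fold change of Eda2r was 0.68 without hemin replicate 1 instead of 1.15. That gene no longer passed without vehicle replicate 1 or 2 (0.0852 and 0.0833) and with limma at a pseudocount of 0.1 (0.0625). Bax, the pore-forming protein of the mitochondrial pathway, stood at 76.6, 79.2 and 87.6 FPKM under vehicle and at 83.8, 111 and 114 under hemin, and did not pass (log2 fold change 0.40 ± 0.13, edgeR adjusted p = 0.0512). It passed without hemin replicate 1 (edgeR adjusted p = 0.00951) and in the fit blocked on replicate number (0.0472). Pidd1, a death domain protein, was at 1.86 ± 0.780 and 1.29 ± 0.357 FPKM (edgeR adjusted p = 0.397).

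Of 13 tested targets that act on metabolism and signalling, 6 rose and none passed as lower, beside 16.2% and 15.7% of all genes tested. DESeq2 called 6 higher and 0 lower, limma 4 and 1 at a pseudocount of 1 and 3 and 2 at 0.1. Over all genes, DESeq2 called 2192 higher and 2083 lower of 18724. Limma called 1792 and 2298 of 12683 at a pseudocount of 1, and 1641 and 2073 at 0.1. At an unadjusted p below 0.05, 2 were lower, as were 2800 of all 12779 genes tested. Only 3 were called higher when vehicle replicate 1 or vehicle replicate 2 was left out. Epha2, an ephrin receptor, rose 8.28-fold, and Thbs1, the matrix protein thrombospondin 1, 8.25-fold. The log2 fold change of Thbs1 was 3.04 ± 0.52 and became 4.08 without vehicle replicate 3, which held 2.04 FPKM beside 0.55 and 0.46 in the other vehicle libraries. On the log2(FPKM + 1) scale the differences were 2.10 for Epha2 and 2.26 for Thbs1. Their edgeR adjusted p-values were 0.000317 and 0.00482, and the summed endothelial markers given above moved the same way, whose part in these rises was not tested. Smaller rises were those of Abhd4, a lipid hydrolase, 1.55-fold, and Rps27l, a ribosomal protein paralogue, 1.32-fold. Without vehicle replicate 1 or 2 the calls of Abhd4 (edgeR adjusted p = 0.0669 and 0.0772) and of Rps27l (0.0673 and 0.0553) were lost. With limma, Abhd4 missed the threshold at a pseudocount of 0.1 (0.0698) and Rps27l at both 1 and 0.1 (0.056 and 0.0719). Ak1, an adenylate kinase named after its values were seen, rose 1.35-fold (edgeR adjusted p = 0.0402), and its call was lost in 8 of the 13 alternatives, with adjusted p up to 0.127. Triap1, a small inhibitor of apoptosis, averaged 14.1 ± 1.46 FPKM under vehicle and 8.59 ± 1.71 under hemin (log2 fold change -0.65 ± 0.21, edgeR adjusted p = 0.05003) and passed as lower in 5 of the 13 alternatives: without hemin replicate 1 (0.0142), with limma at both pseudocounts (0.0168 and 0.0275), with library totals alone (0.0274) and with upper-quartile scaling (0.0427). Gls2, a mitochondrial glutaminase, did not pass the filter on low counts, with 0.37 to 0.46 FPKM in vehicle libraries.

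**Figure D5:**
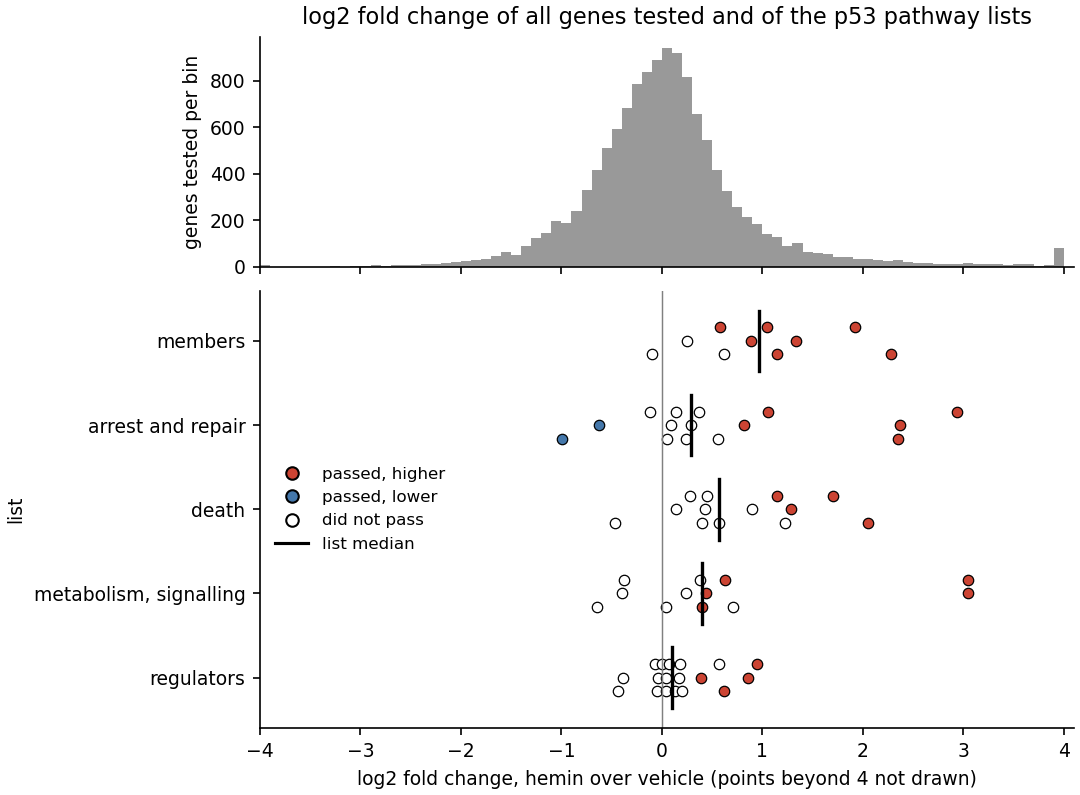
Upper panel, number of genes tested by log2 fold change in bins of 0.1; lower panel, the 10 genes (members), the 3 lists of further p53 targets and the p53 regulators, with red for genes that passed as higher, blue as lower and white for those that did not pass. Vertical strokes are list medians, at 0.96 for the 10 genes and 0.10 for the regulators. Changes beyond 4 are gathered in the outermost bins of the upper panel and not drawn in the lower.

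The regulators are genes that control p53 itself. Of 18 tested, 4 rose, beside the 16.2% of all genes tested that were called higher, a share too near to read as particular to them. No regulator was called lower by edgeR with its default scaling and no block, beside 15.7% of all genes tested. At an unadjusted p below 0.05, 1 was lower, as were 2800 of all 12779 genes tested. DESeq2 and limma at a pseudocount of 1 each called 1 lower, beside 2083 of 18724 and 2298 of 12683 over all genes. Their median log2 fold change was 0.10, beside 0.00 for all genes. Crebbp, an acetyltransferase and coactivator of p53, rose 1.93-fold from 3.15 ± 0.402 to 5.86 ± 0.916 FPKM, and Kat8, an acetyltransferase that modifies p53, 1.82-fold from 10.9 ± 1.55 to 18.99 ± 0.848 FPKM. Rchy1, a ubiquitin ligase that degrades p53, rose 1.53-fold, and Rpl5, a ribosomal protein that binds Mdm2, 1.31-fold, a value that can include reads of its processed copies. Their edgeR adjusted p-values lay between 0.0044 and 0.0185, and Rpl5 no longer passed without vehicle replicate 1 (0.0711) or hemin replicate 2 (0.0555), or with limma at a pseudocount of 0.1 (0.0624). Chek1, the checkpoint kinase of stalled replication, was the gene that DESeq2 called lower. It stood at 14.5, 14.4 and 11.5 FPKM under vehicle and at 9.64, 10.7 and 8.28 under hemin (log2 fold change -0.44 ± 0.15, edgeR adjusted p = 0.0611, DESeq2 adjusted p = 0.045). It also passed as lower with library totals alone (edgeR adjusted p = 0.0274), with limma at a pseudocount of 1 (0.0447) and in the fit blocked on replicate number (0.0376). The p53 relatives Trp63 and Trp73 were near 0, with at most 0.02 and 0.21 FPKM in any library, and were not tested. Atr matched no gene listed in any library, so its level is not known from these data.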

How the data were processed

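RNA-seq libraries of 3 vehicle and 3 hemin samples were grouped by title. Per the submitters' processing notes, Bowtie 0.12.2 and RSEM were used, and mm8 and mm9 are named without saying for what, so no coordinates of the measured reads are given. The authors deposited 1 table per library, which per the file headers holds expected counts, not scaled for depth, and FPKM, scaled by length and depth. Strandedness was not given. Transcripts absent from a table were set to 0 and summed per gene, and 18711 of 18743 genes matched a RefSeq symbol (GRCm38.p6), 16 identifiers through their transcript accession. Expected counts were rounded and tested with edgeR 4.0.16 in R 4.3.3 (filterByExpr, TMM, glmQLFit, glmQLFTest, no covariates, two-sided). The standard error is the log2 fold change divided by the square root of F. Adjusted p-values without another tool's name are edgeR's. Alternatives were DESeq2 1.42.0, limma 3.58.1 on log2(FPKM + 1) and log2(FPKM + 0.1) for genes with a mean FPKM of at least 0.5, other scaling, no filter, each library left out and the replicate number as a block.

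Between libraries of a group, chi-square over its degrees of freedom ranged from 5.35 to 21.7, above counting noise, so none was treated as a duplicate. The tests were tried on simulated data. The 10 genes, lists and tests were chosen with earlier results of these data known. Named genes of the other lists are the 5 with the smallest p per list, the largest change against its direction and those absent or untested; 1 of them is counted in its list but not reported here. Tables of unannotated features were not used.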

Additional observations from a re-analysis of the deposited data

How the results depend on the processing

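The 7 genes that rose kept their direction and their call in all 13 alternatives, and Aen and Zmat3 stayed uncalled and above 0 in all 13, with log2 fold changes of 0.10 to 0.35 and 0.18 to 0.80. Btg2 was never called, and its log2 fold change ranged from -0.45 to 0.0701 with 1 library left out. It turned to 0.0277 without vehicle replicate 2, 0.0701 without hemin replicate 2 and 0.0372 without hemin replicate 3. In these fits the filter, scaling and spread were estimated again from the libraries that remained. The number of the 10 genes called was 7 higher and 0 lower with each library left out. Over all genes the calls ranged from 1442 to 2213 higher and from 1109 to 2317 lower with 1 library left out. The further p53 targets ranged from 11 to 16 higher and from 0 to 3 lower in the same fits, with 0 lower without vehicle replicate 1 and 1 lower without vehicle replicate 2 or hemin replicate 2. They gave 4 lower with libraries scaled by totals alone and 4 lower with limma at a pseudocount of 0.1. Over all genes, 2582 of 12779 and 2073 of 12683 were lower in those fits, and the cause was not tested. Of the regulators, 1 was called lower by DESeq2, with totals alone, with limma at a pseudocount of 1 and with the replicate block, against 0 by edgeR with TMM and no block. The 9 isoform ratios moved by less than 1 SD with counts in place of FPKM.

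Replicate numbers are shared between the groups. The correlation of same-numbered libraries' deviations from their group means was 0.0631, 0.1003 and 0.157. Between libraries of different number it ran from -0.116 to 0.0227, so every library correlated best with its own number. Whether the numbers mark pairs is not stated in the labels, and the main fit used no block. With the replicate block 7 of the 10 genes were called higher and 0 lower, and over all genes 1892 and 1836, against 2072 and 2005 without it. Counts limit Fas most, with 49 expected counts over the vehicle libraries.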

Other observations

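The genes next to the p53 genes were looked at within 5000 bases in the RefSeq table. Wrap53, a telomerase-associated protein gene 98 bases from Trp53, stood at 4.94, 5.33 and 4.50 FPKM under vehicle and at 2.67, 4.27 and 5.11 under hemin, so that its groups overlapped (log2 fold change -0.25 ± 0.25, edgeR adjusted p = 0.484) while Trp53 rose. Isg20, an exonuclease gene known for its induction by interferon, lies 2187 bases from Aen. It stood at 0.77, 0.64 and 0.54 FPKM under vehicle and at 9.44, 5.99 and 8.05 under hemin (log2 fold change 3.56 ± 0.32, edgeR adjusted p = 0.000502), whereas Aen did not pass. Cpm, a carboxypeptidase gene 1523 bases from Mdm2, rose from 0.19, 0.23 and 0.44 FPKM to 1.26, 1.09 and 1.04 (log2 fold change 2.01 ± 0.36, edgeR adjusted p = 0.00598), like Mdm2 itself and from a much lower level.

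The long non-coding RNA gene 4930429B21Rik overlaps the span of Zmat3. It stood at 2.04, 1.84 and 2.00 FPKM under vehicle and at 0.94, 0.84 and 1.69 under hemin (log2 fold change -0.71 ± 0.32, edgeR adjusted p = 0.131). No source used here states whether reads were counted by strand, so those from the overlapping part could not be told apart. These genes were chosen by their position.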
